A study of Mus musculus with 2 samples.

Results

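The Kaiso family comprises Zbtb33, whose product is Kaiso itself, and its relatives Zbtb4 and Zbtb38. All 3 genes were analysed out of 21887 protein-coding genes, each as the 100 bp windows that overlapped its annotated span plus 1 kb on each side. These regions held 194 of the 2537435 windows in the deposited table, with 16 windows for Zbtb33, 61 for Zbtb4 and 117 for Zbtb38. The study captured methylated DNA from mouse testis and sequenced 2 libraries, 1 per genotype. The first came from C57BL/6 males labelled Kaiso KO, described as sterile offspring of generation 3, and the other from wildtype C57BL/6 testis. Ages, the number of animals behind each library and the deleted part of the Kaiso allele were not given in the sources used here. The sample description of the knockout library also contains the words for a wildtype testis, so every knockout value rests on the genotype label. Captured DNA does not report gene expression, and the tissue label was therefore not checked against marker genes.

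Kaiso and its relatives are readers of DNA methylation. Each carries a BTB domain, which pairs with other proteins, and C2H2 zinc fingers, which contact DNA, and Kaiso recruits the NCoR corepressor complex to methylated sites. Kaiso was found as a partner of p120 catenin and recognises methylated CpGs as well as an unmethylated sequence, TCCTGCNA. ZBTB4 and ZBTB38 were recognised as methyl-CpG binding proteins through the likeness of their zinc fingers to those of Kaiso. The capture used the methyl-CpG binding domain of the MBD2 protein, which belongs to a different family of readers and retains fragments the better the more methylated CpGs they hold.

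The DNA before each annotated gene start is shown because the capture depends on CpGs, and the promoters of the family differ in them. The 250 bases before the start are given 5′ to 3′ on the strand of the gene, from RefSeq with build GRCm38.p6, which is the mm10 assembly, and capitals mark CpGs. Zbtb38 has 3 annotated starts, of which the outermost and the next are shown.
Zbtb33, chrX:38189543-38189792, plus strand: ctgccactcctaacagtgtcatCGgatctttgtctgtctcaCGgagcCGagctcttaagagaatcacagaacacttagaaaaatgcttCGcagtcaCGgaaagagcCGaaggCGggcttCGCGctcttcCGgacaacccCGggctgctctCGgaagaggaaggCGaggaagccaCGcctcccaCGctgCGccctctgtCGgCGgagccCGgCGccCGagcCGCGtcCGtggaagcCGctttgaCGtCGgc
Zbtb4, chr11:69765662-69765911, plus strand: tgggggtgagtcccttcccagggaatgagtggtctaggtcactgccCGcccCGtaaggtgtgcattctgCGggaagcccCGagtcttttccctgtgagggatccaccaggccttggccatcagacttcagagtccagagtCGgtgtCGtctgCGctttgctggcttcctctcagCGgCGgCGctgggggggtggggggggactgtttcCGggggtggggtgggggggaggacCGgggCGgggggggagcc
Zbtb38 outermost start, chr9:96731676-96731925, minus strand: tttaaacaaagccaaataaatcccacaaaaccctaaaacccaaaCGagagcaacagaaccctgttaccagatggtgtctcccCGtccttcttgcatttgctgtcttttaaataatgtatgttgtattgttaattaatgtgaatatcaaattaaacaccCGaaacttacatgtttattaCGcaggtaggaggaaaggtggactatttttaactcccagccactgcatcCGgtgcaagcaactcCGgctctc
Zbtb38 next start, chr9:96719851-96720100, minus strand: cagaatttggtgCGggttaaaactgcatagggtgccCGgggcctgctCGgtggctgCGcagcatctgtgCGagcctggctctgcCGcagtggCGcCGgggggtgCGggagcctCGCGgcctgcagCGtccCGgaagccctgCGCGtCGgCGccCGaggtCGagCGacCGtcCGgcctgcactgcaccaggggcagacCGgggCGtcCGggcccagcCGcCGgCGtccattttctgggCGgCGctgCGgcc

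These sequences held 27 CpGs for Zbtb33, 13 for Zbtb4, 6 for the outermost Zbtb38 start and 31 for the next one, against a median of 6 over 32851 RefSeq promoters of the same length. The Kaiso site TCCTGCNA, searched on both strands, was in none of them and in 4.03% of all promoters. CGCG, a palindrome, was in the sequences of Zbtb33 and of the next Zbtb38 start, each with 2 copies, and in 33.8% of all promoters. The 3 CpG-richer sequences overlapped no window of the table. The one with the fewest CpGs, before the outermost Zbtb38 start, overlapped 2 windows with 281 knockout and 152 wildtype counts in sum. The table lists only windows with an authors' p under 0.05, with at least 10 counts over both libraries and at least 1 CpG, so an unlisted window is not shown to be unmethylated or unchanged. Of 21263 annotated starts of protein-coding genes, 83.2% had no listed window in their 300 bp promoter either.

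The libraries held 98549116 reads in the knockout and 87710791 in wildtype. Ratios are given as log2 of knockout over wildtype per library read. With 1 library per genotype no difference has a replicate check and no test across samples was possible. Each 95% interval is the exact (Clopper-Pearson) one for the knockout share of the summed counts, turned into a ratio. It covers only counting error and no spread between libraries of a genotype. PCR copies are not independent molecules, so the interval can be too narrow even for counting error. For sums over windows the intervals are computed on fragments, taken as 4 window counts each, because a fragment is counted in several windows. A window is listed only with a difference between the libraries, which pushes the ratio of a single listed window away from 0. Testis is a mixture of cells, so a different makeup of the tissue and a different methylation per cell cannot be told apart.

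Over the gene plus flanks, Zbtb33 was lower in the knockout library, while Zbtb4 and Zbtb38 were slightly higher and under 2-fold. Zbtb33, on chromosome X from 38189793 to 38197046, had a mean of 5.19 knockout and 18.9 wildtype counts per listed window, and a log2 ratio of -2.04 (95% interval -2.80 to -1.31). Zbtb4, on chromosome 11 from 69765912 to 69784026, had means of 51.8 knockout and 32.8 wildtype counts, with a log2 ratio of 0.49 (0.33 to 0.65). Zbtb38, on chromosome 9 from 96682767 to 96731675, had means of 84.3 and 58.1 counts in knockout and wildtype, with a log2 ratio of 0.37 (0.28 to 0.46). A gene was called with at least 20 fragments over both libraries and a knockout to wildtype ratio no lower than 2 or no higher than 0.5. By that rule 9.74% of 19225 protein-coding genes were higher and 5.80% lower, and Zbtb33 was among the lower ones while Zbtb4 and Zbtb38 were called in neither direction. Scaled by library reads, 62.7% of the called genes were higher, a split that came to 70.2% with the authors' scaling, 53.3% with TMM factors, 50.5% within CpG classes, 48.0% with autosomal counts. It was 28.6% under dense-window scaling, which centres the log2 ratio of CpG-dense windows, those holding 5 CpGs or more, at 0.

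The log2 ratios of Zbtb4 and Zbtb38 lay near the gene median of 0.31, whose quartiles were 0.016 and 0.55. Zbtb4 exceeded 69.9% of the 19225 genes and Zbtb38 57.0%. Both turned negative, to -0.18 and -0.30, under dense-window scaling, which moved the gene median by -0.67. Zbtb33 was the gene with rank 197 from the lowest. It stayed negative under each of the 5 other scalings, between -1.91 and -2.70. Within chromosome X it had rank 25 from the lowest among 794 genes, of which 12.0% were lower by the rule and whose median was 0.47. Its listed windows held 1.81 CpGs on average, and among the 4624 genes with a mean of 2 or fewer, 22.3% were lower and the median was -0.23.

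**Figure D1:**
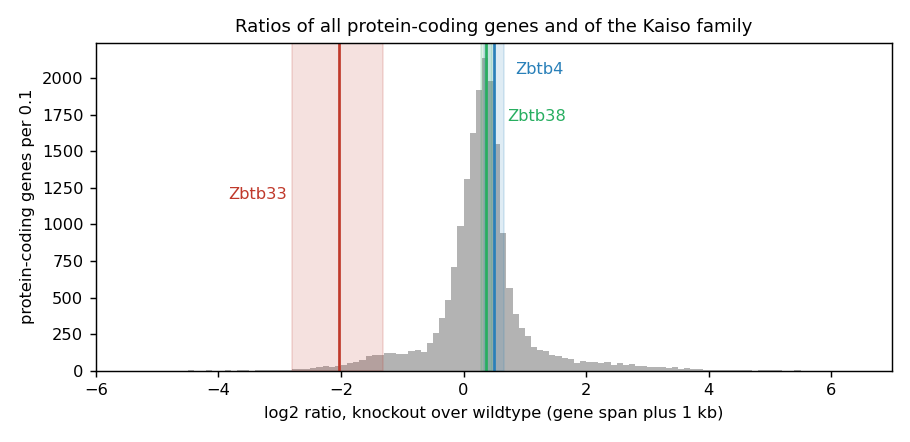
Number of protein-coding genes (y axis, per 0.1 of log2 ratio) by the log2 ratio of knockout over wildtype counts in the gene span plus 1 kb (x axis) for 19225 genes with at least 20 fragments. Lines mark the Kaiso family and shaded bands their 95% counting intervals: Zbtb33 stands in the low tail at -2.04, and Zbtb4 and Zbtb38 stand near the median of 0.31.

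Zbtb33, the gene that the knockout targets, was low in the knockout library along most of what was listed. Of its 16 windows 15 were lower, against 43.5% of all listed windows and 35.2% of those on chromosome X. All its listed windows lay between 1708 and 5407 bp downstream of the gene start. Without a knockout count were 5 of the 16, compared with 2.84% of the listed windows on chromosome X. None of these shares is matched for count level, and Zbtb33 had at most 24 knockout and 42 wildtype counts in a window. Over the table, lower windows had medians of 10 knockout and 29 wildtype counts, and higher ones 95 and 54. How far low counts go with the direction in Zbtb33 was not tested. The first pair, at 38191501 and 38191601, had 6 and 6 knockout counts, against 25 and 23 wildtype counts. The next 3 windows, at 38192301, 38192401 and 38192501, had 7, 6 and 3 knockout counts, against 18, 20 and 19 wildtype counts. In each of these windows the knockout count was under the wildtype count.

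After a gap of 1 window came 5 adjacent windows from 38192701 to 38193200, with 6 CpGs in sum, in which the knockout library had 0 counts. The wildtype library had 17, 18, 20, 15 and 11 counts there. With the knockout library set to a chosen floor of 3 fragments, it was 7.58-fold lower over the stretch, a value that depends on the floor. Such a stretch, of 5 or more neighbouring listed windows lacking knockout counts, was found in 81 of 21887 protein-coding genes (0.370%). Whether it falls in the deleted part of the allele cannot be told, because the labels do not state that part. Without those 5 windows the log2 ratio of Zbtb33 was -1.59.

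The highest counts of the gene came next, and there the libraries were closest. The window at 38193701 had 24 knockout and 42 wildtype counts, and the one at 38193901 had 17 and 35. Reads from Zbtb33 were thus present in the knockout library, in 11 of the 16 windows. The single exception to the direction followed at 38194401, with 9 knockout counts and 1 wildtype count (RPKM 0.913 and 0.114, log2 ratio 3.00, 0.15 to 8.46). The window before it, at 38194101, had 1 knockout and 12 wildtype counts (log2 ratio -3.75, -9.17 to -0.996). The last 2 windows, at 38195001 and 38195101, had 2 and 2 knockout counts, against 13 and 14 wildtype counts, and the log2 ratio at 38195101 was -2.98 (-6.16 to -0.85).

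**Figure D2:**
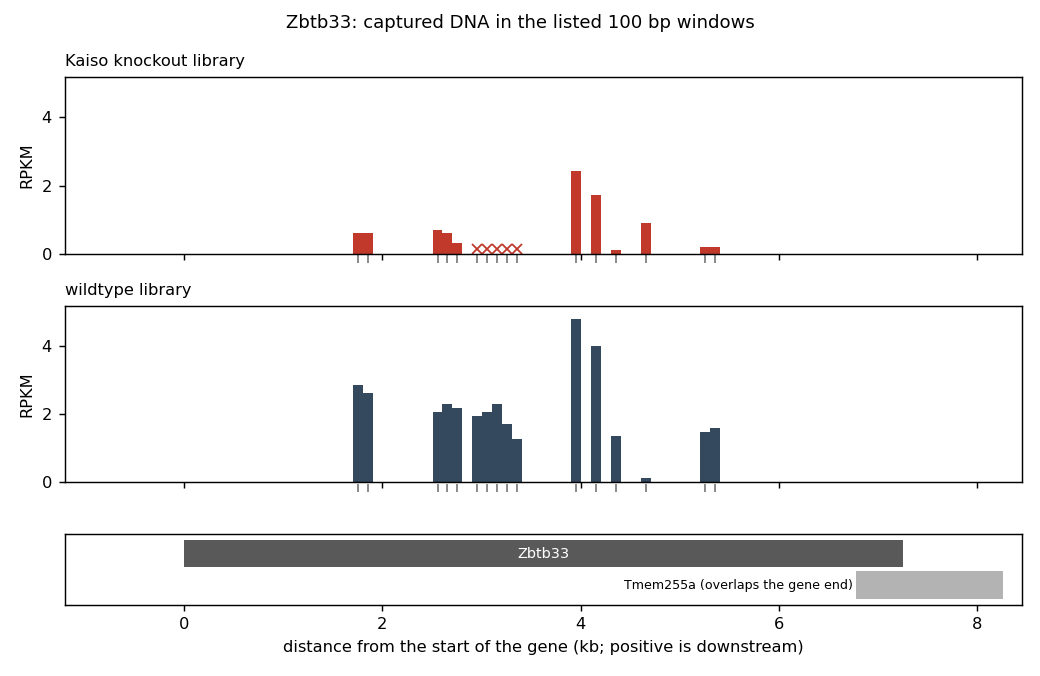
Captured DNA (RPKM, y axis) in the 16 listed windows of Zbtb33 by distance from the gene start (kb, x axis), with the knockout library above the wildtype one. Grey ticks mark listed windows and crosses those with a count of 0: the knockout bars are lower everywhere except in 1 window, and 5 adjacent windows hold no knockout count.

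The Zbtb33 region was more sparsely listed than those of its relatives, and weakly captured, with 1.73 listed windows per kb of the region, next to a median of 1.48 over genes. Its 16 windows made up 17.0% of the 94 windows of the region, compared with 30.2% of 202 for Zbtb4 and 22.9% of 510 for Zbtb38. Their median was 0.254 RPKM in the knockout and 2.05 RPKM in wildtype. Listed windows of chromosome X had medians of 28 knockout and 20 wildtype counts, against 2.5 and 18 in those of Zbtb33. The chromosome medians pool higher and lower windows. A window is also listed only where the libraries differ, so these medians cannot show in which library Zbtb33 departs from the chromosome. No window was listed within 1 kb of the gene start or in the flanks. The gene end overlaps the neighbouring gene Tmem255a, which runs on the other strand, and no listed window lay in the shared part. The authors' relative methylation score, which for the same count is lower the more CpGs a window holds and whose scale the labels do not state, was lower in the knockout library in 15 of the 16 windows, with medians of 0.0104 and 0.105 in knockout and wildtype. Over the table the knockout score was the higher one in 50.2% of windows with a score.

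Zbtb4 alternated between stretches of opposite direction. Consecutive listed windows of the same direction with less than 500 bp between them were joined into blocks, a description made after the values had been seen. Zbtb4 had 9 such blocks, 4 of them higher and 5 lower in the knockout library. Of its 61 windows 41 were higher, compared with 56.5% of all listed windows, and 30 were at least 2-fold higher, compared with 17.6% of all. Another 13 were at least 2-fold lower, against 38.0% of all. Within the gene span alone 26 of 46 windows were higher, which is 56.5%. All 7 windows of the upstream flank and all 8 of the downstream flank were higher. The 2-fold counts above include these flanks, and the 8 downstream windows lie in another gene, as described below.

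The upstream block of Zbtb4 lay ahead of the promoter sequence printed above, at -1011 to -312 bp relative to the gene start. Its 7 windows, from 69764901 to 69765600, fell in level towards the start in both libraries. Knockout counts were 127, 111, 83, 52, 29, 21 and 15 in the order of the chromosome, against wildtype counts of 71, 46, 34, 19, 8, 6 and 4. The block had a log2 ratio of 1.05 (0.55 to 1.58), past 2-fold like 49.4% of the 7041 gene starts with the minimum of fragments. With 500 bp on each side of the start only 2 windows remained, and the ratio was 1.68.

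Past the start the direction turned. The 8 windows from 69767601 to 69768500 had between 4 and 53 knockout counts and between 24 and 77 wildtype counts, with a log2 ratio of -1.06 (-1.55 to -0.60). The lowest windows of the gene were here and just after. They stood at 69768401 with 4 knockout and 24 wildtype counts (-2.75, -4.74 to -1.21), at 69768301 with 8 and 36 (-2.34, -3.65 to -1.21), and at 69770301 with 6 and 24 (-2.17, -3.75 to -0.84). A further lower block of 6 windows, from 69774901 to 69775500, averaged 2.96 RPKM in the knockout and 5.64 RPKM in wildtype (log2 ratio -0.93, -1.49 to -0.36). These lower blocks were CpG-poor, with a mean of 1.38 and 1.67 CpGs per window.

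The most strongly captured part of Zbtb4 differed little. Its 10 windows from 69775801 to 69776900 averaged 13.1 RPKM in the knockout and 9.17 RPKM in wildtype, a log2 ratio of 0.52 (0.26 to 0.78). This block was the one higher block of Zbtb4 that turned lower under dense-window scaling. A block with little wildtype signal followed downstream.

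That block, from 69777501 to 69779100 and 11589 to 13188 bp downstream of the gene start, held the clearest difference inside Zbtb4. Its 16 adjacent windows had between 15 and 77 knockout counts, against 3 to 14 wildtype counts. The mean was 4.86 RPKM in the knockout and 0.905 RPKM in wildtype, with a log2 ratio of 2.43 (1.87 to 3.00). The window at 69778201, with 4 CpGs, had 52 knockout and 4 wildtype counts (3.53, 2.09 to 5.46). Windows of this block held 3.25 CpGs on average, and the median score of the authors was 0.0752 in the knockout and 0.0188 in wildtype. Further downstream, 3 windows from 69781601 to 69782000 were lower, with 23 knockout and 62 wildtype counts in sum (log2 ratio -1.60, -3.22 to -0.16).

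The downstream flank gave the largest ratio of the region, though in the territory of another gene. All 8 windows from 69784301 to 69785100 lie within Chrnb1, the gene of the muscle acetylcholine receptor beta subunit, which runs towards Zbtb4 on the other strand and ends 10 bp from it. Knockout counts were 14, 28, 33, 39, 32, 24, 18 and 14, against wildtype counts of 0, 0, 2, 2, 3, 4, 2 and 2. The log2 ratio was 3.58 (2.03 to 5.41). The window at 69784601 had 39 and 2 counts in knockout and wildtype (4.12, 2.17 to 7.21) and the one at 69784501 had 33 and 2 (3.88, 1.91 to 6.98). Stretches of at least 2 adjacent windows without a wildtype count were present in 14.5% of protein-coding genes. Without the windows in Chrnb1 the log2 ratio of Zbtb4 was 0.40.

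**Figure D3:**
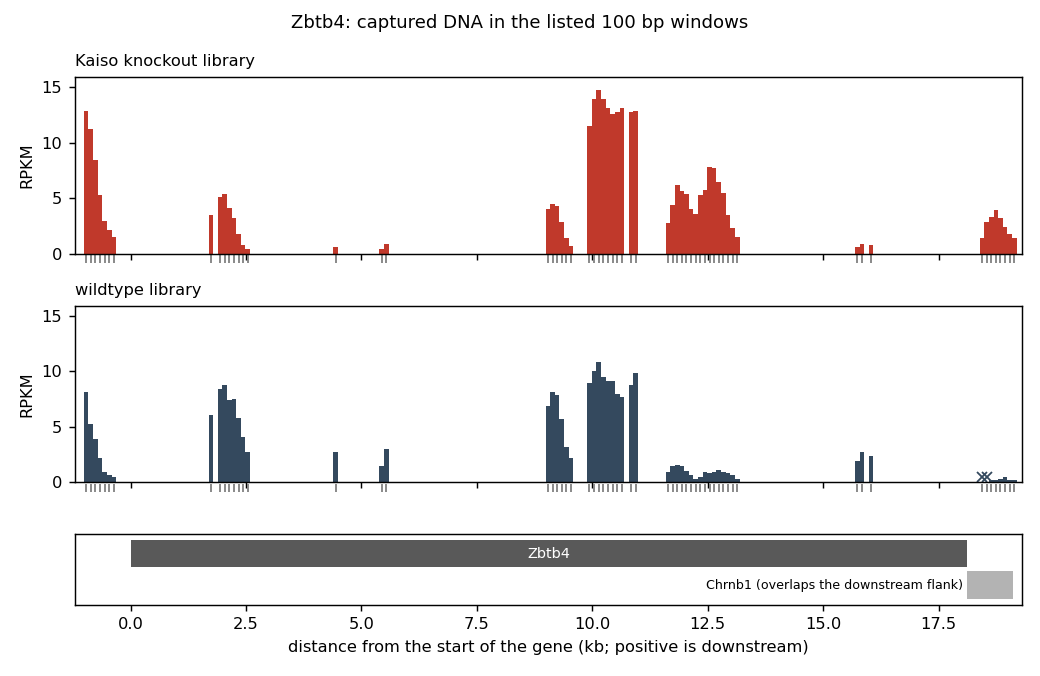
Captured DNA (RPKM, y axis) in the 61 listed windows of Zbtb4 and its flanks by distance from the gene start (kb, x axis), with the knockout library above the wildtype one. Grey ticks mark listed windows and crosses those with a count of 0. The block 11589 to 13188 bp downstream averages 4.86 RPKM in the knockout and 0.905 RPKM in wildtype. Lower stretches stand on both its 5′ and its 3′ side.

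Zbtb38 was the most strongly captured gene of the family, and its differences upwards were small. Of its 117 windows 80 were higher in the knockout library and 37 lower, a share of 68.4% higher that came to 49.6% within CpG classes and to 23.9% under dense-window scaling. The authors' score had medians of 0.196 in the knockout and 0.209 in wildtype, and was the higher one in the knockout in 72 windows. Higher windows had medians of 125 knockout and 71.5 wildtype counts, with a median log2 ratio of 0.58, and only 2 of the 80 reached 2-fold. Lower windows had medians of 7 knockout and 26 wildtype counts, with a median log2 ratio of -2.07, and 34 of the 37 reached 2-fold. Over all listed windows the medians were 0.69 for higher and -1.70 for lower ones, and 17.6% of windows were at least 2-fold higher and 38.0% at least 2-fold lower. A window with few counts passes the authors' test only with a large ratio, and the part of this selection in the sizes was not tested.

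The windows of Zbtb38 formed 27 blocks, 15 higher and 12 lower. All 15 higher blocks held the minimum of fragments, and their log2 ratios ran from 0.35 to 0.85, none past 2-fold. Under dense-window scaling only 3 of these 15 stayed higher, and 14 did within CpG classes. Of the 6 lower blocks with the minimum 5 passed 2-fold, with ratios down to -2.29, and all 6 stayed lower under each scaling tried.

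The higher blocks of Zbtb38 were densest at the 3′ end of the gene. From 96684901 to 96686900 13 windows averaged 11.6 RPKM in the knockout and 8.05 RPKM in wildtype, with a log2 ratio of 0.53 (0.28 to 0.77). The score there had medians of 0.179 in the knockout and 0.201 in wildtype. Window by window, however, it was higher in the knockout except at 96685801 and 96686801. From 96687401 to 96689200 another 17 averaged 12.8 and 8.33 RPKM, with a ratio of 0.62 (0.41 to 0.83). The largest count of the gene, 154 in the knockout against 94 in wildtype, was in this block at 96687701.

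The outermost start of Zbtb38 was itself captured in both libraries. The 5 windows from 96731201 to 96731800, of which 2 reach into the promoter sequence printed above, had 113 to 150 knockout counts, against 52 to 76 wildtype counts. Their log2 ratio was 0.85 (0.46 to 1.24), the largest among the higher blocks of the gene. The lncRNA gene E030011O05Rik, on the same strand, lies upstream with its end over the Zbtb38 start, and 2 of the 5 windows touch it. At the other 2 starts, which have CpG-rich promoters, the nearest listed windows lay 951 and 1145 bp away.

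Of the lower blocks of Zbtb38 with the minimum of fragments, the 3 with the lowest ratios lay between the outermost start and the CpG-rich ones. From 96720801 to 96721800, upstream of the CpG-rich starts, 9 windows had 3 to 9 knockout counts, against 18 to 33 wildtype counts (log2 ratio -2.29, -3.35 to -1.39). The 4 windows from 96723101 to 96723500 had 7 to 11 knockout counts, against 30 to 48 wildtype counts (-2.27, -3.40 to -1.22). From 96727401 to 96727900 another 4 had 4 to 14 knockout counts, against 19 to 36 wildtype counts (-1.94, -3.27 to -0.74).

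The extreme single windows of Zbtb38 had few counts. The window at 96711601 had 1 knockout and 19 wildtype counts (log2 ratio -4.42, -9.79 to -1.76), that at 96703601 had 1 and 11 (-3.63, -9.06 to -0.85), and that at 96703801 had 2 and 16 (-3.17, -6.33 to -1.08). The highest were far smaller in ratio and larger in counts. The window at 96698701 had 133 knockout and 54 wildtype counts (1.13, 0.67 to 1.62), that at 96685601 had 137 and 60 (1.02, 0.58 to 1.49), and that at 96731401 had 146 and 66 (0.98, 0.55 to 1.42).

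**Figure D4:**
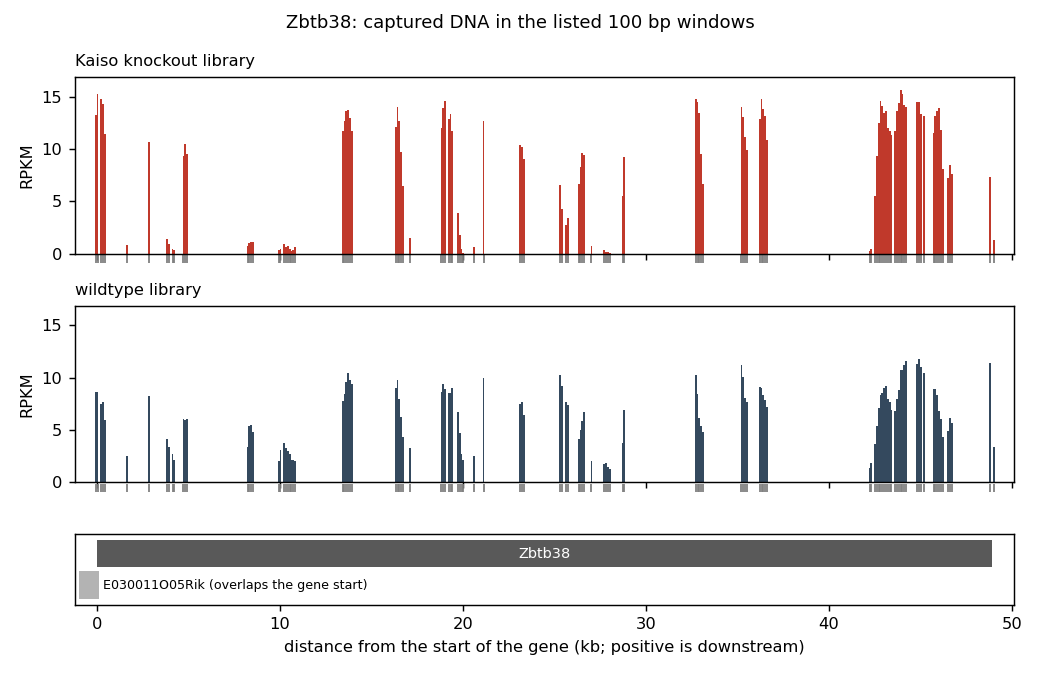
Captured DNA (RPKM, y axis) in the 117 listed windows of Zbtb38 by distance from its outermost start (kb, x axis), with the knockout library above the wildtype one. Grey ticks mark listed windows: the tall blocks reach 15.6 RPKM in the knockout and 11.7 RPKM in wildtype, and the low-count stretches near 8 to 11 kb are lower in the knockout.

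CpG-richer windows were nearly all higher in the knockout library in Zbtb4 and Zbtb38, while the only 3 in Zbtb33 were lower. Of windows with 3 or more CpGs, 26 of 27 in Zbtb4 and 47 of 50 in Zbtb38 were higher in the knockout library, compared with 83.6% of all such windows in the table. In Zbtb33 all 3 windows of this kind were lower, against 13.2% of such windows on chromosome X. They stood at 38191501, 38192301 and 38195101 and had 15 knockout and 57 wildtype counts in sum. All listed windows with 3 CpGs had medians of 75 knockout and 51 wildtype counts, so the 13.2% is not matched for count level. Of windows with 1 or 2 CpGs, 15 of 34 in Zbtb4 and 33 of 67 in Zbtb38 were higher, compared with 42.8% of all, while in Zbtb33 it was 1 of 13. Scaling within CpG classes left Zbtb33 at -2.12 and moved Zbtb4 to 0.18 and Zbtb38 to 0.057, with the gene median at 0.030. Windows of 1 gene share fragments and are not independent, and no test was made between the genes.

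Within Zbtb4 the CpG-richer windows differed by place. With 3 or more CpGs, the median over both directions was 5.48 RPKM in the knockout and 1.03 RPKM in wildtype in Zbtb4, and 12.9 and 8.38 RPKM in Zbtb38. With 4 CpGs, median counts were 54 knockout and 9 wildtype in the 9 windows of Zbtb4, and 134 and 77 in the 15 windows of Zbtb38, against 106 and 63 in all windows with 4 CpGs. Of the 9 windows of Zbtb4, 6 lay in the block from 69777501 to 69779100 and 1 in Chrnb1, and the low wildtype median rests on these. The other two, in the strongly captured block, had 137 knockout and 83 wildtype counts at 69776101, and 127 and 86 at 69776801.

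**Figure D5:**
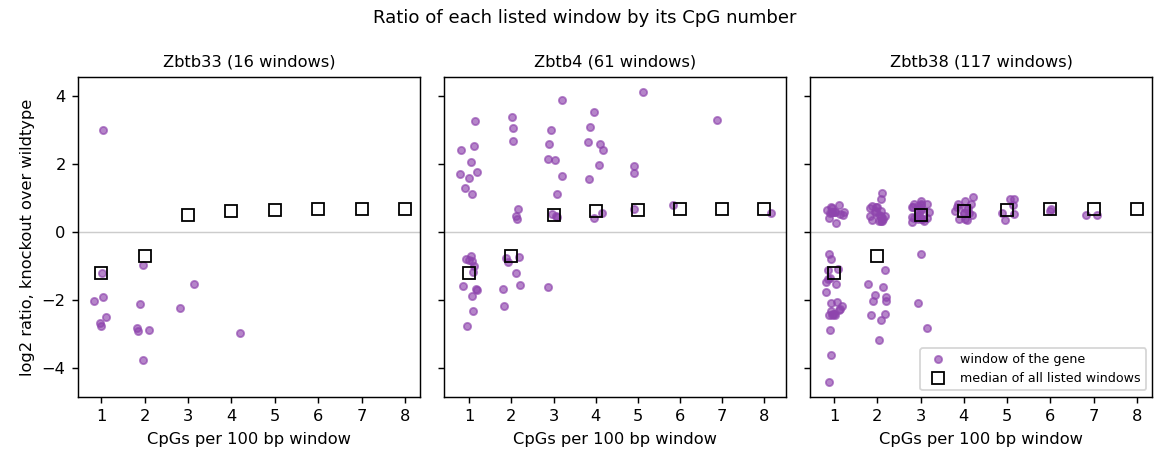
Log2 ratio of knockout over wildtype (y axis) of each listed window of Zbtb33, Zbtb4 and Zbtb38 by its number of CpGs (x axis, points spread sideways), counts of 0 set to 3. Squares are the medians of all listed windows with that CpG number, -1.22 at 1 CpG and 0.51 at 3 CpGs: Zbtb38 points gather at the squares from 3 CpGs on, Zbtb4 points reach far above them, and Zbtb33 points lie below 0 except for 1.

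A list of 12 other methyl-CpG readers and Kaiso partners held no gene past 2-fold. It took in Mbd1, Mbd2, Mbd3, Mbd4, Mbd5 and Mbd6 of the methyl-CpG binding domain family, the hemimethyl-CpG readers Uhrf1 and Uhrf2, Zfp57, which protects imprints, the catenin gene Ctnnd1, and Ncor1 and Hdac3 of the NCoR complex. Of its 12 genes 0 were higher and 0 lower in the sense of the rule, compared with 9.74% and 5.80% of all genes. Their log2 ratios ran from -0.76 to 0.73, with a median of 0.34, next to 0.31 over all genes. The lowest, singled out after the values were seen, was the glycosylase gene Mbd4, the only one under 0, with 441 knockout and 667 wildtype counts, and it passed 2-fold lower with autosomal counts or under dense-window scaling. Dense-window scaling also put the list median at -0.33.

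Among the other BTB zinc finger genes, Zbtb6 was the only one that was low like Zbtb33. This list took in every protein-coding symbol starting with Zbtb, other than the Kaiso family, together with Bcl6, Bcl6b, Patz1, Hic1, Hic2, Mynn and Gzf1, and so includes Zbtb8os, named for its place on the opposite strand of another gene. Of its 45 genes 43 had the minimum of fragments, with 5 higher (11.6%, compared with 9.74% of all genes), 1 lower (2.33%, compared with 5.80%) and a median log2 ratio of 0.38. Zbtb6 had 49 knockout and 190 wildtype counts in 7 windows, each of them lower (-2.12, -3.22 to -1.23). Zbtb45 had 2461 knockout and 507 wildtype counts (2.11, 1.83 to 2.39). Hic1, a tumour suppressor gene often hypermethylated in cancer, had 1793 and 451 (1.82, 1.52 to 2.13), and Zbtb22 had 1962 and 573 (1.61, 1.34 to 1.89). In Zbtb45 all 40 windows and in Zbtb22 all 29 were higher in the knockout library. The remaining higher genes, outside the naming rule, were Zbtb42 (1.42) and Zbtb32 (1.18). Between 2 and 6 genes of this list were higher, and 1 was lower, under the 6 scalings tried, and the median was -0.28 under dense-window scaling.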

How the data were processed

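Methylated DNA of mouse testis was sequenced in 1 Kaiso knockout and 1 wildtype library, grouped by the genotype label. Bowtie2 2.2.6, edgeR and build mm10 are named in the submitters' processing notes. The authors deposited 1 table of 100 bp windows with, per the file headers, the read count, the RPKM, a relative methylation score, the CpG number of each window, and their log2 fold change (wildtype over knockout), p-value and adjusted p-value. In each of the 2537435 windows the authors' p-value was under 0.05 and equalled the adjusted one. Another 10 columns of per-sample or per-group values were not used. Library reads were computed from count and RPKM.

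Gene spans and starts came from RefSeq GRCm38.p6; the CpG number matched the RefSeq sequence in all 8737 listed windows that lie inside a promoter. Exons and proteins were not used here. Ratios of summed counts were scaled by library reads. A count of 0 in a window was set to 3, and a region with under 1 fragment to 3 fragments (12 window counts). Calls needed 20 fragments and 2-fold. The members and lists were chosen with earlier results of these data known. The list of methyl-CpG readers was first drawn up with 1 further gene, which is not reported here. Named were the 3 genes, their 3 most extreme windows per direction, stretches of at least 3 windows without a count in 1 library, and up to 4 called genes per list. Counts of 1 and 2 were kept when windows were ranked, so a window with a count of 0 can rank as less extreme than one with a few. Alternatives covered scaling (TMM from edgeR 4.0.16), flanks, filters on counts and CpGs, pseudocounts and the fragment divisor. Python 3.11.15, pandas 2.3.3 and scipy 1.17.1 were used.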

Additional observations from a re-analysis of the deposited data

How the results depend on the processing

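No paired analysis was possible because each genotype has 1 library, and for the same reason no library could be left out. Leaving out the 5 Zbtb33 windows without knockout counts, or windows in neighbouring genes, was chosen after seeing the data. Zbtb33 stayed inside its counting interval in 14 of 16 settings, and left it with windows of at least 30 summed counts (-1.29, 3 windows left) and with the mean of log2(RPKM + 1) (-1.07). Some of these settings could not move it. With no flank, or with windows wholly inside, the same 16 windows were used, and the fragment divisor does not enter the ratio of any gene. Zbtb4, at 0.49, left its interval with autosomal counts (0.22), TMM factors (0.32), dense-window scaling (-0.18), CpG classes (0.18), no flank (0.32), at least 2 CpGs (0.67), the mean of log2(RPKM + 0.1) (0.82) and its median (0.77). Zbtb38, at 0.37, did so with autosomal counts (0.096), the authors' scaling (0.50), TMM (0.20), dense-window scaling (-0.30), CpG classes (0.057), at least 2 CpGs (0.49), the mean of log2(RPKM + 0.1) (-0.18), that of log2(RPKM + 1) (0.013) and the median (0.46). The direction of Zbtb4 and Zbtb38 over the whole gene therefore depends on scaling and, for Zbtb38, on how windows are averaged, and the cause was not tested. The scalings moved the gene median by -0.27 (autosomal counts), 0.13 (authors), -0.17 (TMM), -0.67 (dense windows) and -0.28 (CpG classes). Genes past the fold numbered 1872 higher and 1116 lower, 927 and 2309 with dense windows set to 0, 4261 and 1660 at a fold of 1.5, and 1620 and 688 with a minimum of 50 fragments. Low counts limit Zbtb33 most, with 386 window counts over both libraries.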
